A study of Mus musculus with 9 samples.

Results

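The genes described here encode 9 enzymes of serine, glycine, proline and asparagine synthesis. They are Phgdh, Psat1, Psph, Shmt1, Shmt2, Mthfd2, Pycr1, Aldh18a1 and Asns, chosen by name from the 43346 genes of the deposited table. All 9 were among the 16877 genes that passed the filter of an average of at least 25 counts per library. Their levels were compared between lung fibroblasts of aged mice given saline and of aged mice given bleomycin, an agent that injures the lung and leads to scarring.

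The aged sham group held 4 mice and the aged bleo group held 5 mice, each giving 1 library. All 9 mice carried the Col1a1-GFP reporter and were 72 weeks old by the sample labels, and the series text gives their age in months. Saline or bleomycin was instilled into the trachea, and the lungs were taken on day 30. GFP+ cells lacking CD45, CD31 and EpCAM were sorted, and polyadenylated RNA was sequenced. GFP is driven by the collagen I promoter in this strain, so fibroblasts in which that promoter is silent were not sampled. Young mice were not analysed here.

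Serine is built from a glycolytic intermediate by the enzymes of Phgdh, Psat1 and Psph in turn, and serine hydroxymethyltransferase then splits serine into glycine and a carbon unit carried by folate. Proline is built from glutamate by enzymes that include those of Aldh18a1 and Pycr1. Collagen is unusually rich in glycine and proline, so fibroblasts that secrete it draw on both products. Several of the members are known targets of ATF4. ATF4 is a transcription factor of the response to amino acid shortage and endoplasmic reticulum stress. No list of such targets was used here, so the members are not divided into targets and other genes.

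Total counts per library were 49921946 to 62370512 in aged sham and 53833507 to 68260600 in aged bleo. The members had 206 to 4772 counts per library, far above the 0.0409 to 0.0605 CPM (counts scaled to library size) that 3 counts are worth. Of 10 fibroblast markers, 6 were called higher and 2, Dcn and Tcf21, lower. Col1a1 rose from 4154 to 20850 CPM on average (log2 fold change 2.33, FDR 1.76e-04), and Dcn fell from 8122 to 2795 CPM (-1.54) and Tcf21 from 106 to 49.6 CPM (-1.10). The summed level of 9 leukocyte markers was 163 to 594 CPM in aged sham against 172 to 262 CPM in aged bleo, apart from aged bleo 4 at 910 CPM. Aged sham 4 had the highest leukocyte sum of its group, and no marker of any list was at 0 in any library. Because aged sham 4 and aged bleo 4 stood apart in this way, member results are also given without both. The last number of a library's name is 4 throughout the aged sham group, whereas in the other group it is 4 only for aged bleo 4, 6 for aged bleo 5 and 5 for the remaining 3 libraries. The sources do not say what this number means, and apart from aged bleo 4 it cannot be told apart from the groups.

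Of the 9 members, 4 rose in aged bleo and 0 fell in edgeR's test, in DESeq2 and in limma alike, and 0 were lower at an unadjusted p under 0.05 in edgeR. The 4 were Mthfd2, Psat1, Asns and Pycr1, with 3.48-fold, 2.64-fold, 2.29-fold and 1.85-fold higher levels. A gene was called where its FDR, the Benjamini-Hochberg adjusted p-value of edgeR's quasi-likelihood test over all tested genes, was under 0.1 and its fold change was over 1.5. Among all tested genes 23.8% were called, 12.3% higher and 11.5% lower, beside 44.4% of the members higher. The members were chosen with earlier results of these data known, so comparisons with all tested genes are descriptions only. The median log2 fold change was 0.41 over the members and 0.0064 over all tested genes. In 4 members every aged bleo library lay above every aged sham library, which was true of 16.1% of all tested genes. In these bulk samples, fewer cells of a type and less RNA per cell cannot be told apart.

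**Figure D1:**
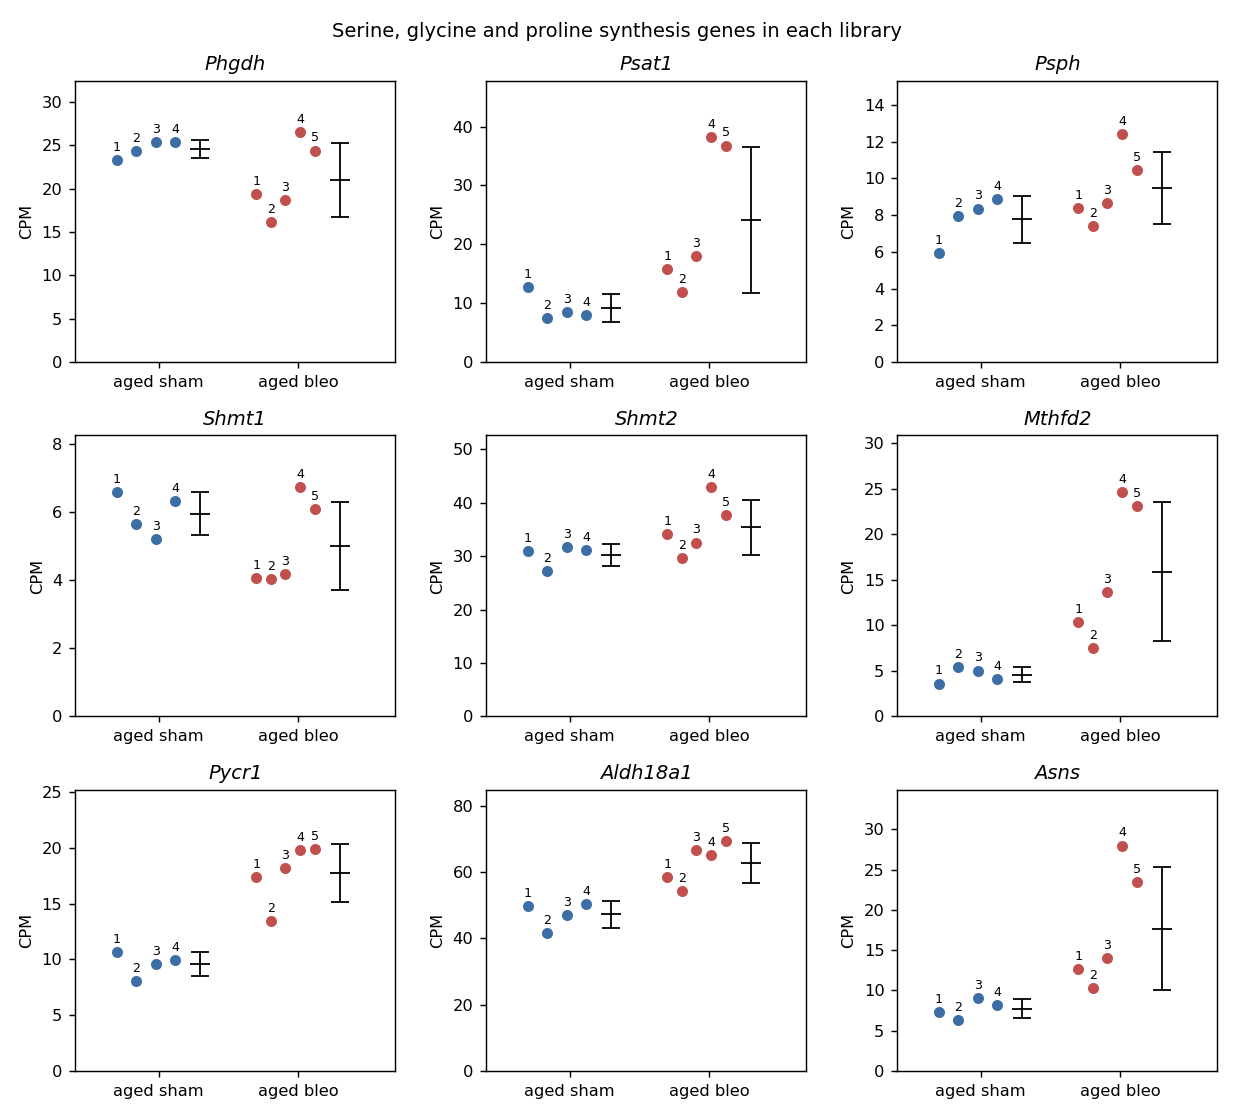
Level of each of the 9 genes in CPM (TMM-normalized, linear axis from 0) in the 4 aged sham libraries (blue) and the 5 aged bleo libraries (red), numbered by replicate, with the mean ± SD of each group beside the points. Mthfd2, Pycr1, Aldh18a1 and Asns show no overlap between the groups, and aged bleo 4 and 5 are the highest pair for Psat1, Mthfd2 and Asns.

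Between the groups, the first step of serine synthesis was not called, unlike the second. Phgdh (ENSMUSG00000053398, chromosome 3, 98313170 to 98339990, 12 exons in the main transcript, with all positions on GRCm38), the dehydrogenase that commits 3-phosphoglycerate to serine, was at 23.3, 24.3, 25.4 and 25.4 CPM in aged sham 1 to 4. In aged bleo 1 to 5 Phgdh was at 19.4, 16.2, 18.8, 26.5 and 24.4 CPM. Aged bleo 1, 2 and 3 were lower than every aged sham library, whereas aged bleo 4 was higher than all of them. The means were 24.6 ± 1.01 CPM (SD, n = 4) and 21.0 ± 4.27 CPM (SD, n = 5), with a log2 fold change of -0.23 (SE 0.14, FDR 0.232). Its 95% interval, -0.54 to 0.09, lay within a 1.5-fold change in either direction. Without aged sham 4 and aged bleo 4 the log2 fold change of Phgdh was -0.32, again not called.

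Psat1 (ENSMUSG00000024640, chromosome 19, 15904678 to 15947337, 9 exons), the aminotransferase that passes nitrogen from glutamate to the serine precursor, rose. It was at 12.7, 7.49, 8.43 and 8.01 CPM in aged sham 1 to 4. In aged bleo 1 to 5 it was at 15.9, 11.8, 18.0, 38.2 and 36.8 CPM. Aged bleo 4 and 5 stood at more than double the other aged bleo libraries, and aged sham 1 lay above aged bleo 2, so the groups overlapped. The group means were 9.15 ± 2.37 CPM (SD, n = 4) and 24.1 ± 12.4 CPM (SD, n = 5). The log2 fold change was 1.40 (SE 0.37, FDR 0.0188), and it was 1.10 (FDR 0.0760) without aged sham 4 and aged bleo 4.

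Psph (ENSMUSG00000029446, chromosome 5, 129765558 to 129787252, 8 exons) encodes the phosphatase that releases serine in the last step. Its level was 5.91, 7.94, 8.36 and 8.85 CPM in aged sham against 8.41, 7.43, 8.67, 12.4 and 10.5 CPM in aged bleo. Only aged bleo 4 and 5 lay above the whole aged sham range. The log2 fold change was 0.29 (SE 0.18, FDR 0.228), with a 95% interval of -0.11 to 0.68, and was not called. It was 0.22 without aged sham 4 and aged bleo 4.

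Both serine hydroxymethyltransferases, which form glycine from serine, stayed short of the call. Shmt1 (ENSMUSG00000020534, chromosome 11, 60788104 to 60811718, 12 exons), the cytosolic enzyme, was at 6.61, 5.65, 5.22 and 6.33 CPM in aged sham and at 4.06, 4.03, 4.18, 6.73 and 6.08 CPM in aged bleo. As with Phgdh, aged bleo 1 to 3 lay below every aged sham library and aged bleo 4 above them, and the log2 fold change was -0.25 (SE 0.19, FDR 0.337, 95% interval -0.67 to 0.18). Shmt2 (ENSMUSG00000025403, chromosome 10, 127517123 to 127522444, 12 exons), the mitochondrial enzyme, was at 30.9, 27.2, 31.7 and 31.2 CPM in aged sham and at 34.2, 29.7, 32.6, 43.1 and 37.7 CPM in aged bleo. In Shmt2, aged bleo 2 lay within the aged sham range and the other 4 aged bleo libraries lay above it. Its log2 fold change was 0.23 (SE 0.11, FDR 0.132, 95% interval -0.02 to 0.47). Without aged sham 4 and aged bleo 4 the log2 fold changes were -0.36 for Shmt1 and 0.15 for Shmt2, and neither was called.

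Mthfd2 (ENSMUSG00000005667, chromosome 6, 83305691 to 83317606, 8 exons) had the largest fold change of the 9. It encodes the mitochondrial dehydrogenase and cyclohydrolase that oxidizes the folate-bound carbon taken from serine, an enzyme that most resting adult tissues express at low levels. Mthfd2 was at 3.62, 5.44, 5.04 and 4.15 CPM in aged sham 1 to 4. In aged bleo 1 to 5 it was at 10.4, 7.52, 13.7, 24.7 and 23.1 CPM. Every aged bleo library was above every aged sham library, and the spread within aged bleo was wide. The means were 4.56 ± 0.829 CPM (SD, n = 4) and 15.9 ± 7.64 CPM (SD, n = 5), and the log2 fold change was 1.80 (SE 0.36, FDR 0.00555). Without aged sham 4 and aged bleo 4 it was 1.53 (FDR 0.0244).

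In the proline branch, both members were higher in every aged bleo library. Aldh18a1 (ENSMUSG00000025007, chromosome 19, 40550257 to 40588463, 19 exons), whose enzyme activates glutamate as the first step to proline, was at 49.8, 41.8, 47.0 and 50.5 CPM in aged sham and at 58.6, 54.5, 66.6, 65.1 and 69.3 CPM in aged bleo. Its log2 fold change was 0.41 (SE 0.09, FDR 0.00890), which at 1.33-fold was under the fold threshold, so Aldh18a1 passed the FDR threshold without being called. Pycr1 (ENSMUSG00000025140, chromosome 11, 120635712 to 120643769, 8 exons), whose mitochondrial reductase completes proline, was at 10.6, 8.11, 9.62 and 9.98 CPM in aged sham. In aged bleo Pycr1 was at 17.4, 13.5, 18.2, 19.8 and 19.9 CPM, a narrower range than that of Psat1, Mthfd2 or Asns. The means were 9.59 ± 1.07 CPM (SD, n = 4) and 17.8 ± 2.64 CPM (SD, n = 5), with a log2 fold change of 0.89 (SE 0.13, FDR 0.00149). Without aged sham 4 and aged bleo 4 the log2 fold change was 0.41 for Aldh18a1 and 0.85 for Pycr1.

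Asns (ENSMUSG00000029752, chromosome 6, 7675169 to 7693254, 12 exons) encodes asparagine synthetase, which makes asparagine from aspartate with glutamine as the nitrogen donor. Its level was 7.30, 6.33, 9.10 and 8.23 CPM in aged sham. In aged bleo it was 12.7, 10.3, 14.1, 28.0 and 23.5 CPM. The groups did not overlap, and as for Psat1 and Mthfd2 the highest 2 libraries were aged bleo 4 and 5. The means were 7.74 ± 1.19 CPM (SD, n = 4) and 17.7 ± 7.65 CPM (SD, n = 5), with a log2 fold change of 1.19 (SE 0.30, FDR 0.0148) and of 0.98 (FDR 0.0412) without aged sham 4 and aged bleo 4.

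All 9 genes lie on the minus strand in the GENCODE M21 annotation of GRCm38. Smcr8, on the other strand, shares 184 bases of its span with Shmt1, and Ndufa4l2 shares 30 bases with Shmt2. The pseudogene Gm15801, on the same strand, shares 522 bases with Aldh18a1 and had 41 to 100 counts per library. The library kit does not mark strand, so reads in the stretches shared with Smcr8 and Ndufa4l2 cannot be told apart. Reads shared by Gm15801 and Aldh18a1 could not be told apart by strand with any kit.

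The letters upstream of the members differ. The sequence TGATGNAA, a form of the element that ATF4 binds with a C/EBP partner, and CACGTG, the palindromic E-box of MYC and related factors, were searched on both strands in the RefSeq promoter windows of GRCm38.p6, which run from 250 bases before the transcription start to 50 after it. TGATGNAA was present in the windows of 2 members, Pycr1 and Asns, and in 3.97% of 32851 promoters. CACGTG was present in the window of 1 member, Aldh18a1, and in 7.15% of all promoters. The windows of the other 6 members, including both windows of Psat1, hold neither, which says only that these letters are not in these windows. The 150 bases before the start are printed for the 4 genes that rose and for Aldh18a1, 5′ to 3′ on the minus strand, with the found letters in capitals. In Pycr1 the element begins 103 bases before the start, in Asns 23 bases before it, and in Aldh18a1 the E-box begins 59 bases before it. The windows are chr11:120643749-120643898 for Pycr1, chr6:7693210-7693359 for Asns, chr6:83317605-83317754 for Mthfd2, chr19:15925060-15925209 for the first start of Psat1, and chr19:40588464-40588613 for Aldh18a1.
Pycr1: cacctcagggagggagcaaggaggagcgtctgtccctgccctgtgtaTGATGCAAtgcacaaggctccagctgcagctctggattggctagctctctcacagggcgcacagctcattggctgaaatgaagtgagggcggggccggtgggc
Asns: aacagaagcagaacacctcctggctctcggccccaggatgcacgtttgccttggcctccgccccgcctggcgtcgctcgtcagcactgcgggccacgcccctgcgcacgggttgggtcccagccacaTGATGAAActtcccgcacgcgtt
Mthfd2: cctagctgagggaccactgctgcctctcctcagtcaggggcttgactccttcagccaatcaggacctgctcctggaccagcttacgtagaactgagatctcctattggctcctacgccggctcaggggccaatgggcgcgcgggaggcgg
Psat1: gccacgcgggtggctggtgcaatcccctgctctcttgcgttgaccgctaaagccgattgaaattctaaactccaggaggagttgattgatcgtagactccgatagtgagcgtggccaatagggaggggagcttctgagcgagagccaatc
Aldh18a1: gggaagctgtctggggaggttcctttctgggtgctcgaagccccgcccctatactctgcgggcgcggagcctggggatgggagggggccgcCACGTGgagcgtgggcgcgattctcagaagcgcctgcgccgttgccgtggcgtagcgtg

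Per length, the members fell into a high and a low set. On the deposited FPKM scale, which divides counts by gene length and library total, mean levels in aged sham were 5.50 ± 0.339 for Shmt2, 4.87 ± 0.349 for Aldh18a1 and 4.15 ± 0.171 for Phgdh (SD, n = 4). The other 6 had FPKM levels between 0.642 for Shmt1 and 1.19 for Asns, and neighbours in that order overlapped in range. In aged bleo the mean FPKM levels of Aldh18a1 (6.64 ± 0.722, SD, n = 5) and Shmt2 (6.63 ± 1.16) were alike within their spread. Mthfd2 moved from next to last in aged sham, at 0.704 ± 0.137 FPKM, to the fifth place in aged bleo, at 2.53 ± 1.27 FPKM. Asns at 2.81 ± 1.29 FPKM and Psat1 at 2.46 ± 1.32 FPKM were its neighbours there and did not differ from it beyond their spread. Psph and Shmt1 were the lowest in aged bleo, at 1.02 ± 0.243 and 0.558 ± 0.159 FPKM.

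Ratios of FPKM levels within a library show the uneven movement of neighbouring enzymes. The pairs were chosen after the member values were seen, so they are described with no test. The Psat1 to Phgdh ratio was 0.318, 0.180, 0.194 and 0.185 in aged sham and 0.479, 0.427, 0.561, 0.842 and 0.881 in aged bleo. The Mthfd2 to Mthfd1 ratio, mitochondrial against cytosolic enzyme, was 0.152 to 0.245 in aged sham and 0.374 to 1.18 in aged bleo. In aged bleo 4 and 5 Mthfd2 thus exceeded Mthfd1 on the FPKM scale, which it did in no other library. The Shmt2 to Shmt1 ratio, again mitochondrial against cytosolic, was 7.88 to 10.2 in aged sham and 10.5 to 14.2 in aged bleo, and here aged bleo 4 and 5 had the lowest ratios of their group. In each of the 3 ratios the groups did not overlap.

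**Figure D2:**
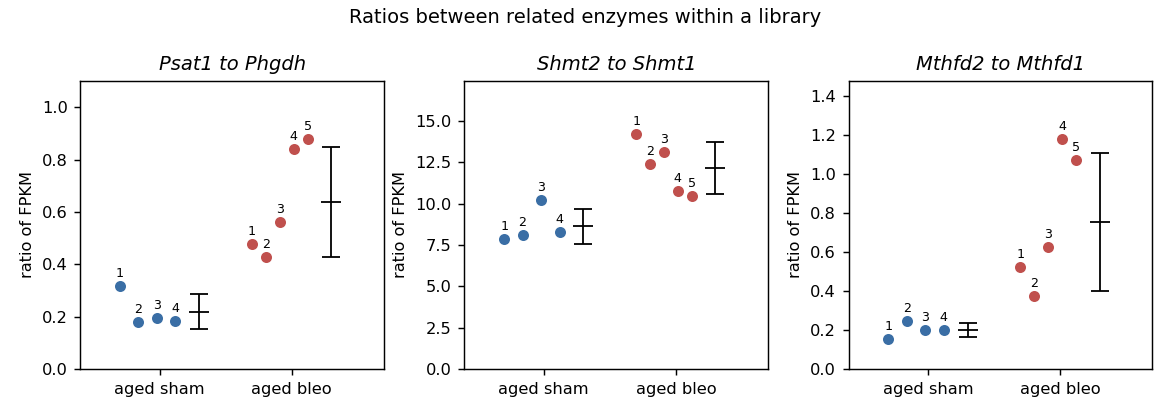
Ratio of deposited FPKM levels of 2 related enzymes within each library (no unit, linear axis from 0), for the 4 aged sham (blue) and 5 aged bleo (red) libraries, numbered by replicate, with the mean ± SD of the ratio beside the points. The Psat1 to Phgdh ratio lies between 0.180 and 0.318 in aged sham and between 0.427 and 0.881 in aged bleo.

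The aged bleo libraries kept a similar order across the members. Aged bleo 2 was the lowest of its group for 9 of 9 members, and aged bleo 4 was the highest for 7 of 9. Psat1, Psph, Shmt1, Mthfd2 and Asns had the same order, aged bleo 4, 5, 3, 1 and 2 from high to low. The summed level of 17 cell cycle genes had that order as well, at 691, 598, 289, 232 and 146 CPM, and 15 of the 17 were called higher. Phgdh and Shmt2 ran aged bleo 4, 5, 1, 3 and 2. The sum of 14 glycolysis genes had this order too, at 2996, 2673, 1931, 1888 and 1576 CPM. Mki67, which marks cycling cells, rose (log2 fold change 2.44, FDR 0.0412), but missed the FDR threshold without aged sham 3 (2.20) or without aged sham 4 (2.23). Mki67 also missed it without both aged sham 4 and aged bleo 4 (1.93, FDR 0.147). Aged sham 1 had the highest cell cycle sum of its group, at 198 CPM beside 105 to 106 CPM in the other aged sham libraries, and also its highest Psat1 level and its lowest Mthfd2 level. Aged bleo 2 had a lower cell cycle sum than aged sham 1, and Mthfd2 was at 7.52 CPM in the former and 3.62 CPM in the latter. Whether cycling cells account for the member levels was not tested.

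Aldh18a1 had another order, aged bleo 5, 3, 4, 1 and 2, which was that of the summed fibrillar collagens at 75540, 73630, 68460, 66840 and 52540 CPM. Of the single collagen genes only Col1a2 had this order. Col1a1, Col5a1 and Col5a2 ran aged bleo 5, 4, 3, 1 and 2, the order of Pycr1, and Col3a1 ran 3, 1, 5, 2 and 4. All 5 fibrillar collagen genes were called higher, and their sum was 16700 to 21340 CPM in aged sham. Col3a1 rose from 7910 to 23900 CPM (log2 fold change 1.60, FDR 4.82e-04). With 5 libraries these shared orders are given as a description.

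Markers of other cells also moved with the groups. The sum of 12 macrophage markers was 206 to 417 CPM in aged sham against 560 to 1901 CPM in aged bleo, with 6 of the 12 called higher. Aged bleo 4 and 5 had the highest macrophage sums, 1901 and 1033 CPM, and the highest Psat1, Mthfd2 and Asns levels. Aged bleo 2 had the third highest macrophage sum, 780 CPM, and the lowest level of all 9 members in its group. The leukocyte sum of aged bleo 5, 253 CPM, was within the aged sham range, and its macrophage sum was above that range. Ptprc, which encodes the CD45 that the sort selected against, averaged 87.0 CPM in aged sham against 65.0 CPM in aged bleo and was not called (log2 fold change -0.42, FDR 0.643). This value rested on the libraries numbered 4, as Ptprc had a log2 fold change of 0.12 without aged sham 4, of -1.30 (FDR 0.0414) without aged bleo 4, and of -0.77 (FDR 0.0746, called lower) without both. The neutrophil sum was 171 to 1031 CPM in aged sham against 98.1 to 927 CPM in aged bleo, the endothelial sum 165 to 204 and 29.1 to 73.5 CPM (of its 8 markers Tek was lower, at 161 and 28.9 CPM on average, 2 were called higher, and the median log2 fold change was 0.04), the epithelial sum 25.6 to 119 and 26.3 to 75.0 CPM, and the smooth muscle and pericyte sum 3077 to 6279 and 2395 to 3578 CPM. The part of proliferating cells or of macrophage RNA in the member differences was not tested.

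**Figure D3:**
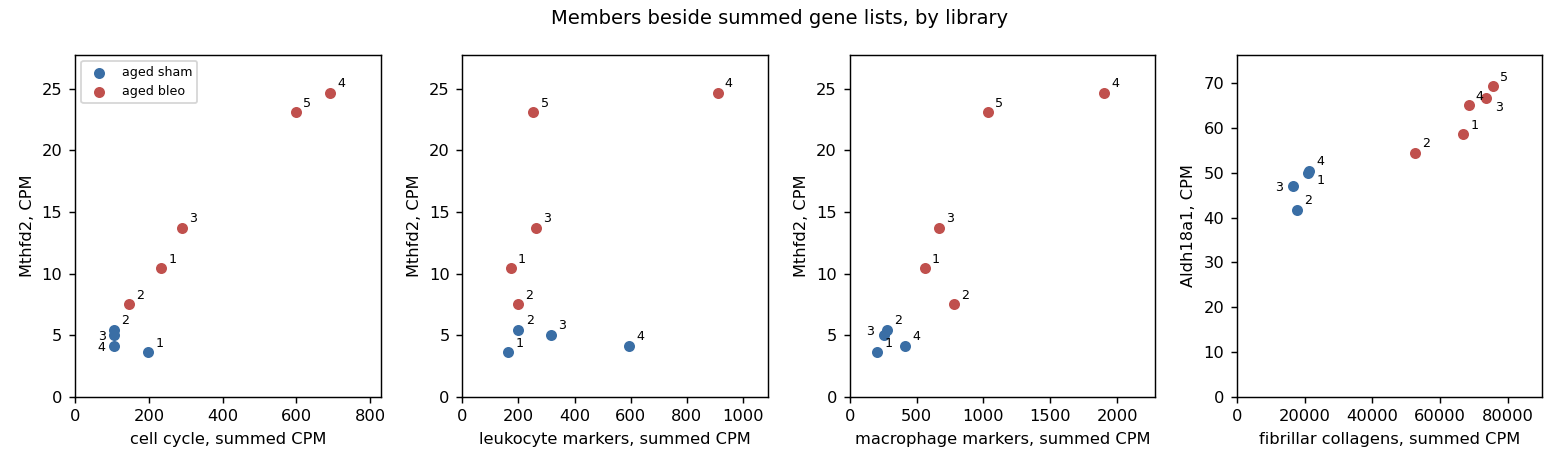
Level of Mthfd2 or Aldh18a1 (CPM) against the summed CPM of cell cycle genes, leukocyte markers, macrophage markers or fibrillar collagens (linear axes from 0), 1 point per library, numbered by replicate, blue for aged sham and red for aged bleo. Aged bleo 4 has the highest leukocyte sum, 910 CPM, and aged bleo 5 is at 253 CPM. Both have the highest macrophage sums, 1901 and 1033 CPM, and any link to Mthfd2 was not tested.

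Of 104 other genes of these pathways, 98 were tested, 12 were called higher (12.2%) and 15 lower (15.3%), beside 12.3% and 11.5% of all tested genes. Their median log2 fold change was 0.03. The folate cycle list, which takes up the carbon unit from serine, had 4 genes called higher and 0 lower of 16 by edgeR. DESeq2 called 5 higher and 0 lower, limma 4 and 0, and 3 were lower at an unadjusted p under 0.05 in edgeR. Aldh1l2, the mitochondrial enzyme that burns formyl-folate to carbon dioxide, rose from 6.88 to 8.09 CPM in aged sham to 13.7 to 46.5 CPM in aged bleo (log2 fold change 1.87, FDR 0.00320). Its aged bleo values were 19.4, 13.7, 22.5, 33.8 and 46.5 CPM, so aged bleo 4 and 5 were again the highest. Mthfd1l, which releases formate in mitochondria, rose (1.01, FDR 0.0453), as did Tyms, the thymidylate synthase of DNA synthesis (1.23, FDR 0.00779), and Aldh1l1, the cytosolic relative of Aldh1l2 (0.70, FDR 0.0178). Mthfd1, the cytosolic enzyme of the same reactions, had a log2 fold change of -0.14 (FDR 0.169), and Mthfd2l, the paralog of Mthfd2, of 0.47 (FDR 0.0333), and neither was called. The call of Mthfd1l was lost without aged sham 2 (FDR 0.116), without aged sham 3 (FDR 0.101) and without both aged sham 4 and aged bleo 4 (FDR 0.156). With the replicate number as a block it was lost as well (FDR 0.1005).

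Among 10 tested genes of serine and glycine turnover, 1 was called higher and 4 lower. The one called higher was Pgam1, the glycolytic mutase just downstream of the branch to serine, at 23.4 to 24.5 CPM in aged sham against 26.5 to 52.2 CPM in aged bleo (log2 fold change 0.73, FDR 0.0198). Gldc and Amt, subunits of the mitochondrial glycine cleavage system, fell, with log2 fold changes of -1.55 (FDR 0.0220) and -0.68 (FDR 0.0571). Gldc was at 7.69, 5.87, 8.57 and 7.14 CPM in aged sham and at 2.81, 4.51, 3.18, 0.928 and 1.12 CPM in aged bleo. Its lowest libraries, aged bleo 4 and 5, were the highest for Psat1 and Mthfd2. Gcat, which acts in the breakdown of threonine to glycine, fell as well (-0.59, FDR 0.00867). Gnmt, which methylates glycine and was named after its values were seen, fell from 0.933 to 0.409 CPM (-1.18, FDR 0.0112). Amt missed a threshold without aged sham 2 or 3 or aged bleo 3, 4 or 5 (log2 fold changes -0.66 to -0.55), and Gcat without aged sham 2 or aged bleo 5 (both -0.51).

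Among 16 tested genes of glutamate and proline metabolism, 2 were called higher and 2 lower. Pycr3, a relative of Pycr1, had a log2 fold change of -0.11 (FDR 0.468). Oat, which supplies the proline precursor from ornithine, was not called (-0.35, FDR 0.0517), and neither was Pepd, which frees proline from collagen dipeptides (0.30, FDR 0.121). Prodh, the first enzyme of proline breakdown, fell (-0.60, FDR 0.0184), while Aldh4a1, the second, had a log2 fold change of 0.54 (FDR 0.00149) that was under the fold threshold. Prodh was under the fold threshold without aged sham 1 or 3 or aged bleo 4 or 5 (-0.56 to -0.53), and Aldh4a1 was over it without aged sham 2 (0.59). Glul, glutamine synthetase, fell from 272 to 109 CPM (-1.32, FDR 7.49e-04). Gpt2, the mitochondrial alanine aminotransferase, rose (0.86, FDR 6.78e-04), and Arg1, arginase, rose from 0.307 to 0.428 CPM in aged sham to 9.85 and 5.82 CPM in aged bleo 4 and 5, with 0.486 to 1.12 CPM in the other aged bleo libraries (3.34, FDR 0.0278). The call of Arg1 was lost in limma on log2(FPKM + 0.1) (1.75) and on log2(FPKM + 1) (FDR 0.165). With the replicate number as a block it was lost as well (1.86, FDR 0.154).

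Of 15 tested amino acid transporters, 1 was called higher and 2 lower. Slc7a5, a carrier of large neutral amino acids, rose (log2 fold change 1.42, FDR 0.00346). Slc1a5, a glutamine and serine carrier, and Slc43a1 fell (-0.92, FDR 0.00981, and -0.72, FDR 3.19e-04). Slc1a4, a serine carrier, and Slc38a2, a glutamine and proline carrier, had log2 fold changes of 0.43 (FDR 0.00605) and -0.32 (FDR 0.0888), under the fold threshold. Of 20 cytosolic aminoacyl-tRNA synthetases, 0 were called in either direction by edgeR, DESeq2 or limma, while 9 were higher and 0 lower at an unadjusted p under 0.05 in edgeR. Their median log2 fold change was 0.19. Those for the members' products had log2 fold changes of 0.20 for serine (Sars, FDR 0.0947), 0.52 for glycine (Gars, FDR 0.0151), 0.29 for proline (Eprs, FDR 0.0270) and 0.18 for asparagine (Nars, FDR 0.119). Gars passed both thresholds without aged bleo 2 (0.59).

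Other genes of the ATF4 and amino acid stress response did not share one direction. Of 21 tested, 4 were called higher and 7 lower. Atf4 itself was at 215, 279, 246 and 227 CPM in aged sham and at 176, 178, 172, 162 and 140 CPM in aged bleo, with no overlap (log2 fold change -0.55, FDR 0.00432), and was under the fold threshold, though not without aged sham 1 (-0.60). These are RNA levels, and the protein and activity of ATF4 were not measured. Trib3, a pseudokinase, fell (-1.03, FDR 0.00281), and Atf3, a stress-induced factor, fell from 893 to 198 CPM (-2.17, FDR 0.00177). Atf5 (-0.91, FDR 0.0169), Vldlr (-0.62, FDR 0.0163) and Ppp1r15a, which reverses the translation block of the stress response (-1.17, FDR 0.00671), fell as well. Ddit3, which encodes CHOP, was not called (-0.49, FDR 0.0481) unless aged bleo 2 was left out (-0.63). The 4 called higher, named after their values were seen, were Ddit4 (2.17), Nupr1 (0.61), Cth (0.85) and Eif4ebp1 (0.73). Under the fold threshold were Vldlr without aged sham 1 or aged bleo 4 or 5 (-0.58 to -0.53), Nupr1 without aged sham 1 or 4 or aged bleo 1 (0.53 to 0.55), and Eif4ebp1 without aged bleo 4 (0.57). Cth was not called without both aged sham 4 and aged bleo 4 (0.62, FDR 0.158) or with the replicate number as a block (FDR 0.135). Among the 14 glycolysis genes, whose pathway feeds Phgdh, 6 were called higher and 1, Pfkp, named after its value was seen, lower.

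**Figure D4:**
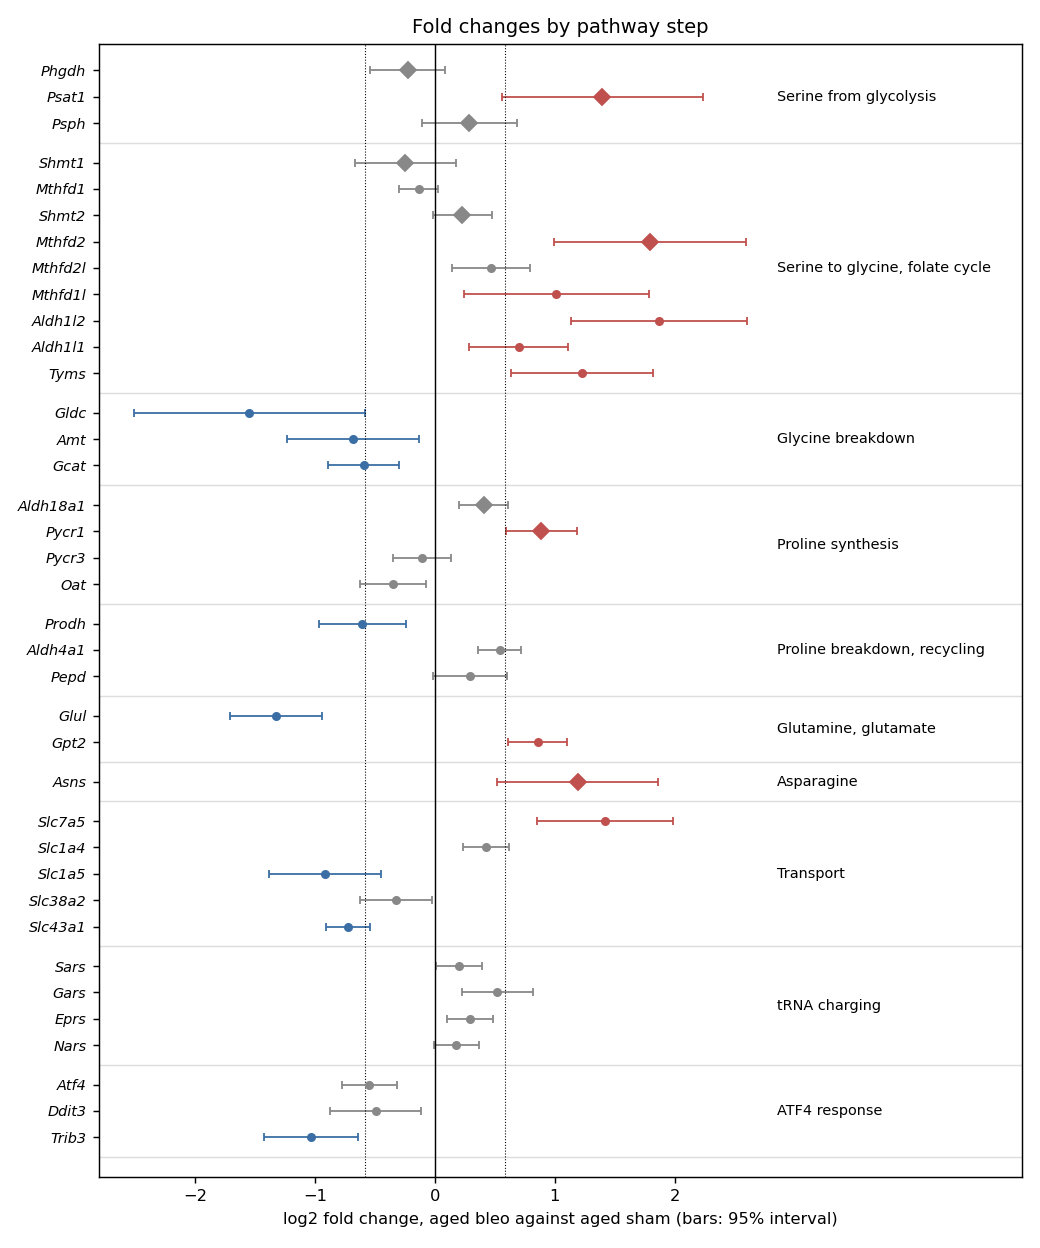
Log2 fold change of aged bleo against aged sham (edgeR fit, linear axis in log2 units) with its 95% interval for the 9 members (diamonds) and a selection of other named pathway genes (circles), grouped by step. Gcat is plotted under glycine breakdown with Gldc and Amt, although it acts in the breakdown of threonine to glycine. Red marks genes called higher, blue genes called lower and grey genes not called, and dotted lines mark a 1.5-fold change. Mthfd2 (1.80), Psat1 (1.40), Asns (1.19) and Pycr1 (0.89) are the called members, and Gldc (-1.55) is the lowest of the genes plotted, which leave out Atf3 and some other named genes.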

How the data were processed

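RNA-Seq libraries of sorted lung fibroblasts, 4 of aged sham and 5 of aged bleo mice, were grouped by the treatment in the sample labels. The authors deposited whole-number read counts per gene, without normalization, and FPKM values. The submitters' processing notes name STAR 2.5.2b, featureCounts of Subread and the mm10 (GRCm38) build. Whether counting used strand is not given in the sources used here. Of 42462 gene identifiers shared with GENCODE M21, 78.9% had the same start and end there, among them 7 of the 9 members.

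The 16877 genes averaging 25 counts or more per library entered edgeR 4.0.16 in R 4.3.3 (TMM normalization, quasi-likelihood test, no covariate), and were called where the FDR was below 0.1 and the fold change above 1.5, the thresholds of the study's methods. CPM values are TMM-normalized, and intervals are 95% intervals of the fit. Library totals and the CPM worth of a few counts cover counting error only. The 95% intervals also include the spread between libraries in the fit. No pair of libraries in a group was a duplicate by a chi-square test of counts. The scripts were tested on simulated data. The alternatives were DESeq2 1.42.0, limma 3.58.1 (limma-trend, with log2 CPM or with FPKM after a pseudocount of 0.1 or 1), edgeR with RLE or with no scaling beyond library size, all genes with a count, only genes with 10 or more counts in each library, stricter thresholds, each library left out and replicate numbers as a block. A fit without aged sham 4 and aged bleo 4 was added after seeing the data.

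The members and gene lists were chosen with earlier results of these data known. The genes named are the members, the 4 called genes of each pathway list with the largest mean CPM, a fixed set of related enzymes, carriers and stress genes, some of which are not reported here, and Col1a1, Col3a1, Mki67 and Ptprc. Promoter windows were matched by symbol for 9 of 9 members.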

Additional observations from a re-analysis of the deposited data

Results flagged for a closer look

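Of the 18 sets formed by 9 members and 2 groups, 1 held a library far from the others of its group. Shmt2 in aged sham 2 was at 27.2 CPM, while the nearest aged sham library was at 30.9 CPM. About 1 in 20 such sets is picked out by chance.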

How the results depend on the processing

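Over 20 alternatives, 178 of 180 member log2 fold changes kept their direction and their call, and 0 reversed. Of the members not called, Shmt2 passed the FDR threshold alone without aged bleo 2 (FDR 0.0492) and Phgdh without aged bleo 4 (FDR 0.0560). The exceptions were Pycr1 on log2(FPKM + 1), at 0.54, and at an FDR under 0.05 with a fold change over 2, where its 0.89 was under the fold threshold. On log2(FPKM + 1), which shrinks the change of low genes, 1785 genes were called, 960 higher and 825 lower, with 6 pathway genes higher and 5 lower. At the stricter thresholds 2158 genes were called, 1224 higher and 934 lower, with 6 pathway genes higher and 7 lower. In both, 3 members were called higher, and 4 in every other alternative. Of 880 values of the 44 other genes named, 805 kept direction and call, 67 lost a call, 7 gained a call and 1 reversed, Ptprc without aged sham 4 (0.12), with -1.30 at the other end of its range without aged bleo 4.

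With each library left out in turn, 3525 to 4597 genes were called, and the log2 fold changes ranged from 1.16 to 1.60 for Psat1, 1.57 to 1.98 for Mthfd2, 0.96 to 1.34 for Asns and 0.82 to 0.97 for Pycr1. With the replicate number as a block, 3536 genes were called, with 4 members and 8 other pathway genes higher and 13 lower. Among the other genes named, Arg1, Cth, Gcat, Mthfd1l, Pgam1 and Prodh lost their calls in this fit. The numbers do not pair the libraries by the labels, and correlations of same-numbered libraries ran from -0.13 to 0.33, with 1 of 4 aged sham libraries correlating best with its own number. The labels name no litter or batch. With 4 and 5 libraries, a wide spread within aged bleo limits the precision of the Psat1, Mthfd2 and Asns fold changes more than counting depth does.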
